A study of Rattus norvegicus with 2 samples.

Results

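The genes described here encode the PI3K, AKT, mTOR and AMPK kinases, their subunits and their closest partners. They were chosen by name, as a list of 39 genes, and 37 of the 39 were read by at least 1 target that could be named, out of 15564 named genes on the array; Pik3c2a and Sgk2 were not analysed here. Each gene was read at its brightest target, and 36 of the 37 had a single target. The study compared AR42J, a rat cell line from a tumour of the exocrine pancreas, without treatment and after 20 min with 200 µM (written μM/L in the labels) taurolithocholic acid 3-sulfate (TLC-S), a sulfated bile acid used in models of biliary pancreatitis. Total RNA of each group was hybridised to 1 one-colour array, with no genetic change or further agent named in either group. With 1 array in each group there was no replicate check, no test was run, and treatment cannot be told apart from any other difference between the 2 arrays.

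Class I PI3Ks are pairs of a catalytic and a regulatory subunit that phosphorylate a membrane lipid when growth factor receptors or G proteins are active. The lipid brings AKT to the membrane, where PDK1 and mTOR complex 2 activate it. AKT then inhibits the TSC complex, GSK3 and the FOXO transcription factors, which releases mTOR complex 1 to drive S6 kinase and protein synthesis, while AMPK senses low energy and opposes that complex. In mouse acinar cells PI3K activity has been linked to the calcium response to bile acids. These kinases are controlled mainly by phosphorylation, and the arrays measured their transcripts alone.

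Most of these transcripts gave a somewhat higher intensity in TLC-S, and few differed by much. The log2 ratio of TLC-S over control was above 0 for 31 of 37 genes, against 59.3% of all named genes, and its median was 0.45, against 0.15 over all named genes. Of the 37 genes, 5 (13.5%) passed 2-fold upward by measured ratio, against 8.67% of all named genes, and 0 passed it downward, against 5.38%. The 5 were the kinase Sgk1, the PI3K catalytic subunits Pik3cb and Pik3c3, the mTOR partner Mlst8 and the kinase Sgk3. The count rests on where the limit lies: Sgk3, just inside, had a log2 ratio of 1.02, whereas Akt1 and the phosphatase Inppl1, just outside, had 0.99 and 0.98. At a limit of 1.5-fold, 16 genes (43.2%) were higher, against 23.5% of all named genes, and 3 (8.11%) were lower, against 13.1%. The 3 lower genes were the catalytic subunit Pik3ca and both FOXO factors.

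The shift of the whole array bears on these counts. The median log2 ratio was 0.25 over the 10164 genes at an intensity of 100 or more on both arrays, the limit at which the authors listed targets. Of the 37 genes, 32 reached 100 on both arrays, 3 (Pik3r3, Sgk1 and Prkab2) on the TLC-S array only and 2 (Pik3c2g and Prkaa2) on neither. Among the 32, 4 passed 2-fold upward, against 10.0% of genes at that intensity, and 0 downward, against 4.38%. After a loess curve of ratio on signal was subtracted, the median of the 37 genes was 0.23, against 0.0098 over all named genes. After loess 27 of the 37 stayed above 0, against 50.7% of all named genes. Among the 32 it was 23, against 49.9% of genes at that intensity. On that scale 3 genes (Sgk1, Pik3cb and Mlst8) passed 2-fold upward, against 5.31% of all named genes, and 2 (Pik3ca and Foxo1) downward, against 6.71%. A gene with 1 array under 100 is given below as a bound, at least N-fold, against an intensity of 100.

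**Figure D1:**
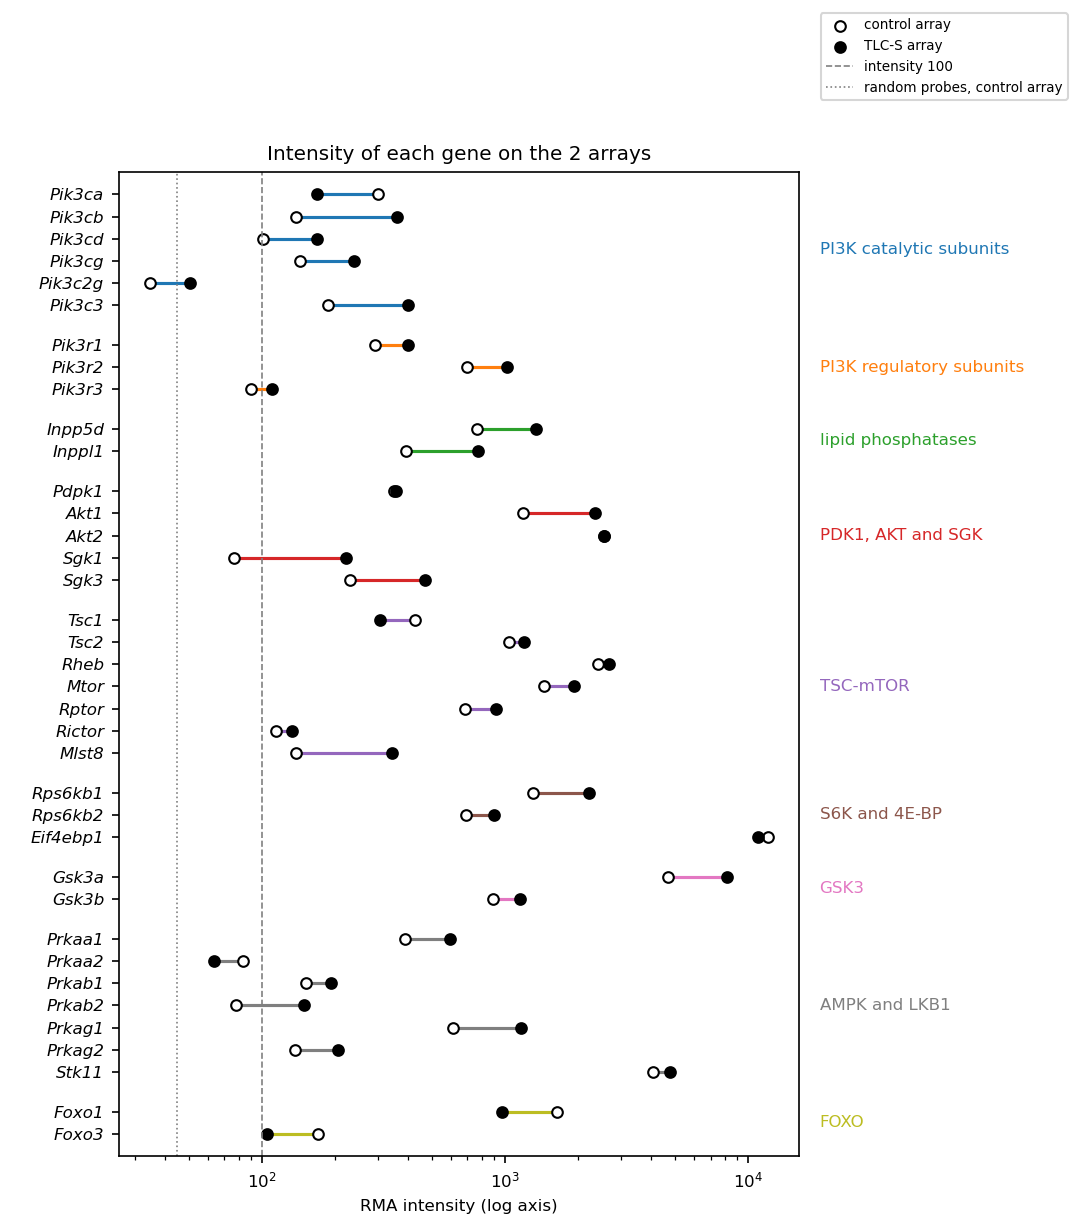
Intensity of each of the 37 genes on the control array (open points) and the TLC-S array (filled points), on a log axis, grouped by step of the pathway; the dashed line marks an intensity of 100 and the dotted line the random-sequence probes of the control array, at 44.7. The filled point lies to the right for 31 genes and to the left for 6, among them both FOXO genes.

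The cell type on the label was checked against its markers. Of 24 acinar genes, 4 reached 100 on both arrays: the trypsinogens Prss1, Prss2 and Prss3 and the transcription factor Bhlha15. Another 3 reached it in control alone and 17 on neither array. Amylase (Amy2a3) gave 64.0 in control and 64.8 in TLC-S, and carboxypeptidase Cpa1 43.1 and 45.5, beside random-sequence probes at 44.7 and 40.5. The summed intensity of the 24 genes was 31108 in control and 5897 in TLC-S. The 3 trypsinogens made up 28615 and 3642 of it, and the other 21 genes gave 2493 and 2255, a split made after the values were seen. The trypsinogens, close relatives whose probes may share targets, were 7.21-fold to 8.85-fold lower in TLC-S. By contrast 18 of 19 pan-leukocyte genes and 5 of 5 measured B lymphocyte genes, from a list of 10, reached 100 on both arrays. Of all 15564 named genes 10164 did so, and the B lymphocyte gene Ebf1 stood just above the limit, at 119.7 and 102. The summed intensity of the leukocyte genes was 33219 and 34351, and that of the B lymphocyte genes 6079 and 5995. The data thus go against the label in that the acinar programme was largely at background while leukocyte transcripts were present on both arrays, and the part of either in the values below was not tested. On an array of bulk RNA, fewer cells of a type and less RNA per cell cannot be told apart.

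The catalytic subunits of PI3K come first in the pathway, and their ratios differed in direction. Pik3cb, the beta subunit, used by receptors and G proteins in most tissues, gave 137 in control and 359 in TLC-S, 2.62-fold higher (log2 ratio 1.39). Pik3ca, the alpha subunit, which carries most insulin and growth factor signals, gave 300.2 and, after TLC-S, 168, which is 1.78-fold lower (-0.83). The log2 ratios of these widely expressed subunits thus lay 2.22 apart, and they were the highest and lowest of the 6 catalytic genes. That was the widest gap among the 12 pairs of related genes set side by side here. The pairs were chosen with earlier results of these data known, so the rank says little. Both ratios lay inside the central 95% of genes of similar intensity, -1.60 to 1.86. The Pik3ca target came from a predicted RefSeq record and that of Pik3cb from a curated one. Pik3cd and Pik3cg, the delta and gamma subunits known mainly from leukocytes, were both higher by less than 2-fold. Pik3cd gave 101 and 168 (log2 ratio 0.73), so that its control value stood just above the limit of 100. Pik3cg gave 143 and 239 (0.74) at its brighter target and 144 and 161 (0.16) at the other, so that its difference depends on the target read. Pik3cg is the subunit that G protein coupled receptors activate, and both of its targets came from predicted records.

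Outside class I, Pik3c3, the class III enzyme that makes the lipid needed to start autophagy and to mature endosomes, gave 187 in control and 399 in TLC-S, 2.14-fold higher (log2 ratio 1.10). Its partner Pik3r4, among the other pathway genes, gave 207 and 300.1 (0.54). Pik3c2g, a class II enzyme known from liver, gave 34.5 and 50.7, close to the random-sequence probes on both arrays, so no fold is given. Over the 6 catalytic genes the median log2 ratio was 0.74 (0.63 after loess), with 5 of 6 above 0, against 59.3% of all named genes.

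The windows around the annotated starts of Pik3c3, Sgk1 and Mlst8 are shown because these are the members past 2-fold for which a promoter sequence was at hand. Each runs from 250 bases before to 50 bases after a start in the RefSeq annotation of build GRCr8, 5′ to 3′ on the gene's strand. Capitals mark matches, on either strand, to short motifs of general promoters and of factors that respond to signals. For the cyclic AMP response element, or CRE, the letters searched were TGACGTCA. The AP-1 site of the Fos and Jun factors was searched as TGANTCA, with any base at N. For FOXO factors the motif was GTAAACA, the core of their known binding site. The E-box of Myc-type and TFEB-type factors was searched as CACGTG. A GC box, the site of Sp1-type factors, was taken as GGGCGG. The box of the factor NF-Y was searched as CCAAT, its name. For the TATA box near many inducible starts the letters were TATAAA. No 2 matches overlap in these windows. Sgk1 has 3 annotated starts, numbered by position, and the array does not say which was used.
Pik3c3, chr18:22119607-22119906, plus strand: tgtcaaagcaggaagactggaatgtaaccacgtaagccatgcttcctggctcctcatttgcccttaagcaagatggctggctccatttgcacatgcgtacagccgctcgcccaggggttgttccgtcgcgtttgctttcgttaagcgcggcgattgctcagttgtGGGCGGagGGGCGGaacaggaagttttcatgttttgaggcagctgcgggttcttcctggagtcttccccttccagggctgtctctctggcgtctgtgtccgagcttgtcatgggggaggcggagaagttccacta
Sgk1 start 1, chr1:24804782-24805081, minus strand: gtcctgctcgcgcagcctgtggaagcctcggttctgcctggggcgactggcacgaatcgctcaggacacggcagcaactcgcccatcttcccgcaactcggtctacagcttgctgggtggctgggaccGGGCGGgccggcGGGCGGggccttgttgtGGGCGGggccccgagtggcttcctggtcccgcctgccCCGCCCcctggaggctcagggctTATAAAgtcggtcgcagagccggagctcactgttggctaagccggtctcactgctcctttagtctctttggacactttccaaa
Sgk1 start 2, chr1:24805521-24805820, minus strand: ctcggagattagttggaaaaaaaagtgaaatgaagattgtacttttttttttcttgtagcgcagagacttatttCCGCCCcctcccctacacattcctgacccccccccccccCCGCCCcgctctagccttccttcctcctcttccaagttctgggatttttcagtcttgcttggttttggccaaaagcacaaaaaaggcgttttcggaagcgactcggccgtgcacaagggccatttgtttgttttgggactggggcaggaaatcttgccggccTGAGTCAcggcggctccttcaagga
Sgk1 start 3, chr1:24807182-24807481, minus strand: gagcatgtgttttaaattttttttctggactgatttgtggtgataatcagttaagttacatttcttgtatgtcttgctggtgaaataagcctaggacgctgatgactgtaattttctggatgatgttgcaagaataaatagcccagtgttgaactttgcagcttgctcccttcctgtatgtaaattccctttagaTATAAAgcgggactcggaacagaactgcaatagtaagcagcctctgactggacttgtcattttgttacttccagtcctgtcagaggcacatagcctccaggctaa
Mlst8, chr10:14008629-14008928, minus strand: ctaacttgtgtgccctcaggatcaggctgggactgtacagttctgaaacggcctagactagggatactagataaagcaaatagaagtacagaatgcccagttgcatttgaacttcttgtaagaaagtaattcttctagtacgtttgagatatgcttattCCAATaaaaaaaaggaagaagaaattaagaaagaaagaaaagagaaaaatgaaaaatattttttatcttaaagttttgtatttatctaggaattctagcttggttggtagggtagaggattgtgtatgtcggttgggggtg

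The 5 windows share little. Pik3c3 holds 2 GC boxes, 1 start of Sgk1 holds 4 GC boxes and a TATA box, another 2 GC boxes and an AP-1 match, the third a TATA box, and Mlst8 a single CCAAT box. Their GC content runs from 35.7% (Mlst8) to 66.0% (Sgk1, start 1). Windows were found for 32 of the 37 genes, 36 in all, with a median GC content of 61.2%, against 51.7% over 33469 windows of all genes. A GC box stood in 21 of the 36 (58.3%), against 33.1% of all windows, and a TATA box in 3 (8.33%), against 14.2%. A CCAAT box stood in 9 (25%), against 37.5%. The AP-1 motif stood in 1 of the 36, that of Sgk1 (7.33% of all windows), the E-box in 2 (Gsk3b and Rheb; 6.42%), the FOXO motif in 3 (Pik3ca, Stk11 and Tsc1; 3.78%) and the CRE in 0 (1.83%). A match describes these letters and says nothing of binding.

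The regulatory subunits, which hold the catalytic subunits at receptors, were all higher by less than 1.5-fold. Pik3r1, which encodes p85 alpha and its short forms, gave 292 in control and 399 in TLC-S (log2 ratio 0.45). Pik3r2, p85 beta, gave 699.8 and 1018 (0.54). Pik3r3, p55 gamma, crossed the limit with 90.3 and 109, at least 1.09-fold higher. The 3 genes lay closer together than the catalytic subunits did, with log2 ratios from 0.28 to 0.54 against -0.83 to 1.39.

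Both lipid phosphatases, which remove a phosphate from the PI3K product, were higher by more than 1.5-fold. Inppl1 (SHIP2), expressed in most tissues, gave 391 in control and 774 in TLC-S, 1.98-fold higher. Inpp5d (SHIP1), known from blood cells, gave 766 and 1346, 1.76-fold higher. After loess the log2 ratios were 0.66 for Inppl1 and 0.51 for Inpp5d.

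The next step holds PDK1, the AKT kinases and the related SGK kinases. Pdpk1, which encodes PDK1, gave 350.4 in control and 357 in TLC-S, a log2 ratio of 0.028. Akt1, the isoform tied to growth and survival, gave 1185 and 2351, 1.98-fold higher (0.99). Akt2, the isoform tied to insulin-driven glucose uptake, gave 2543 and 2561 (0.0098). The 2 isoforms, each read by 1 target of a curated record, thus lay 0.98 apart on the log2 scale (0.95 after loess). All named genes were sorted into 10 bins of equal size by mean log2 intensity, and among those in the bin of Akt1 7.58% had a ratio as high as that of Akt1 or higher.

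The SGK kinases, which PDK1 and mTOR complex 2 also activate and which regulate ion transport, were both higher. Sgk1, a gene whose transcript is short-lived and inducible by steroids, serum and cell stress, had the highest measured ratio of the 37, though its control value lay under the limit. It gave 76.8 in control and 222 in TLC-S, at least 2.22-fold higher (measured log2 ratio 1.53). With an offset of 50 added to both arrays its log2 ratio was 1.10, below the 1.13 of Pik3cb. Sgk3, which is drawn to endosomes by the product of class III PI3K, gave 230 and 466, 2.03-fold higher, at a target from a predicted record. In their own bins of signal, 3.15% of genes had a ratio as high as that of Sgk1, and 13.7% one as high as that of Sgk3.

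**Figure D2:**
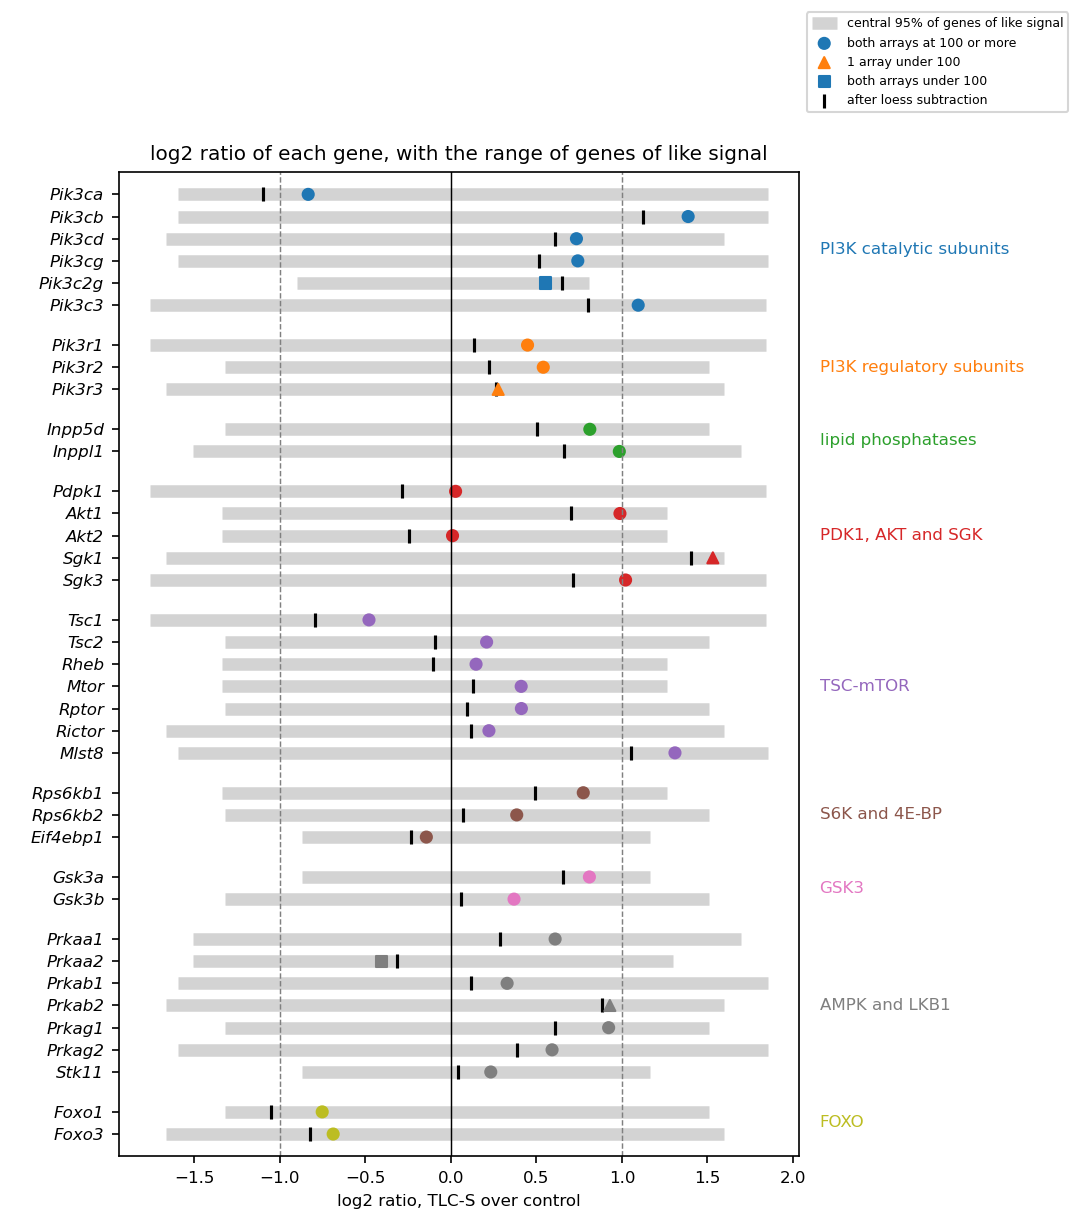
Log2 ratio of TLC-S over control for each of the 37 genes (coloured symbols, shape by how many arrays reached 100), with the value after loess subtraction (black tick) and the central 95% of ratios of all genes in the same bin of signal (grey bar). All 37 symbols lie inside their grey bars, and the dashed lines mark 2-fold.

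At the TSC complex and mTOR, every gene but Mlst8 differed by less than 1.5-fold by measured ratio. Tsc1, the scaffold of the complex that restrains mTOR, gave 426 in control and 306 in TLC-S (log2 ratio -0.48), and Tsc2, its catalytic partner, gave 1036 and 1197 (0.21). Rheb, the small GTPase that the complex switches off, gave 2412 and 2671 (0.15), and the kinase Mtor gave 1446 and 1923 (0.41). The ratios of Tsc2 and Rheb turned below 0 after loess, to -0.094 and -0.11, and that of Tsc1 was -0.79. Rptor, the scaffold of mTOR complex 1, gave 687 and 914 (0.41), and Rictor, that of complex 2, gave 114 and 133 (0.22), both at targets of predicted records. Mlst8, a subunit shared by both complexes, gave 137 and 341, 2.48-fold higher (1.31). The other 6 genes of this step had log2 ratios from -0.48 to 0.41.

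Downstream of mTOR complex 1, Rps6kb1, the main S6 kinase, gave 1299.9 in control and 2223 in TLC-S, 1.71-fold higher (log2 ratio 0.77). Rps6kb2, the second S6 kinase, gave 687 and 898 (0.39). Eif4ebp1, which blocks cap-dependent translation until mTOR phosphorylates it, gave 12095 and 10952 (-0.14), nearly level between the arrays.

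Of the GSK3 kinases, which AKT inhibits and which act on glycogen synthase and beta-catenin, the alpha form had the larger ratio. Gsk3a gave 4677 in control and 8199.5 in TLC-S, 1.75-fold higher (log2 ratio 0.81), one of the brightest of the 37. Gsk3b gave 893 and 1153 (0.37).

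AMPK is a trimer of a catalytic alpha, a scaffold beta and a nucleotide-sensing gamma subunit. Of the 7 genes of this step, 6 had ratios above 0, against 59.3% of all named genes. After loess 6 were above 0, against 50.7%. Prkaa1, the alpha 1 catalytic subunit, gave 388 in control and 592 in TLC-S, 1.53-fold higher. Prkaa2, the alpha 2 form known mainly from muscle, gave 83.7 and 63.2 and was under 100 on both arrays. The catalytic transcript above the limit was therefore alpha 1.

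The gamma subunit Prkag1 gave 612 and 1159.85, 1.90-fold higher (log2 ratio 0.92), and Prkag2 gave 137 and 206, 1.51-fold higher. Prkab1, the beta 1 scaffold, gave 152 and 191 (0.33), whereas Prkab2 gave 77.8 and 148, at least 1.48-fold higher. Stk11, which encodes LKB1, the kinase that activates AMPK, gave 4049.9 and 4761 (0.23). The median log2 ratio of the 7 genes was 0.59, against 0.15 over all named genes, and none reached 2-fold. After loess the median was 0.29, against 0.0098, with Prkab1 at 0.12 and Stk11 at 0.040.

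The FOXO step was the only one of the 9 in which every measured member was lower. FOXO factors leave the nucleus when AKT phosphorylates them, and otherwise switch on genes of arrest, metabolism and stress defence. Foxo1 gave 1637 in control against 972 with TLC-S, a 1.68-fold lower value (log2 ratio -0.75), and Foxo3 gave 169 and 105, 1.61-fold lower (-0.69), its TLC-S value just above the limit. In their own bins of signal, 4.95% of genes had a ratio as low as that of Foxo1 or lower, and 16.0% one as low as that of Foxo3. After loess the log2 ratios were -1.05 and -0.82. Both targets came from predicted records.

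Signal sets how far these ratios can be read. All 5 genes past 2-fold lay in bins 4 to 6 of the 10, counted from the dimmest, at mean intensities of 86.9 to 419, where the log2 ratios of all genes spread most (SD 0.83, with 14.0% of them at least 2-fold higher). In that range the median was 0.59 for 17 of the 37 genes and 0.22 for all genes. The 18 genes in the brighter bins had a median of 0.41, against 0.26 for all genes, and log2 ratios from -0.75 to 0.99. Of the 37 genes, 0 lay outside the central 95% of ratios in their own bin of signal, Sgk1 coming nearest with 1.53 against an upper end of 1.60. Predicted records supplied the target for 9 of the 37.

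**Figure D3:**
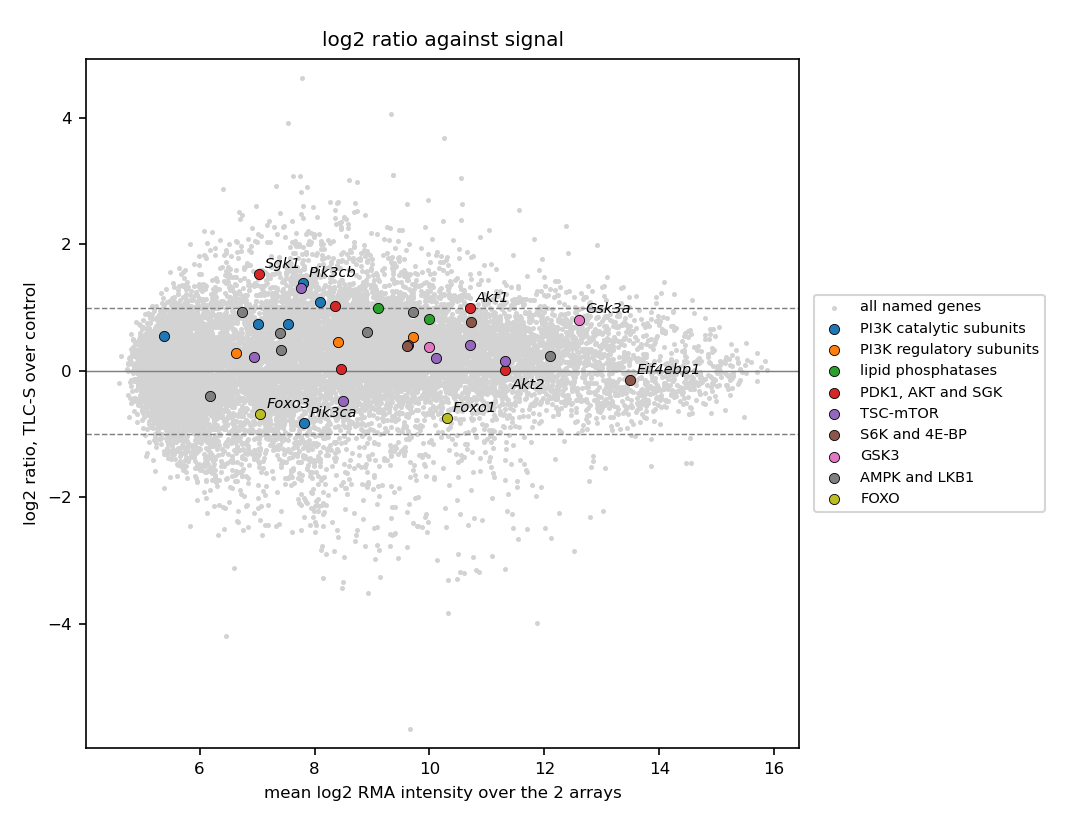
Log2 ratio of TLC-S over control against mean log2 intensity for all 15564 named genes (grey) and the 37 genes (coloured by step), with 2-fold marked by dashed lines. The 5 genes past 2-fold sit at mean intensities where the grey cloud is widest, and the brighter Akt1 and Gsk3a lie under the line.

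The authors' deposited tables list part of these genes. The authors' deposited up table held 4 of the 37, Pik3cb, Mlst8, Pik3c3 and Sgk3, with folds of 2.62, 2.48, 2.14 and 2.03, and the authors' deposited down table held 0. In the authors' deposited pathway table, 9 of 38 terms held 1 of the 37 genes and 0 held 2 or more. Pik3cb stood in 8 of these 9 and Pik3c3 in the other, Phagosome. The term with the smallest p-value in the authors' deposited table that held one was Progesterone-mediated oocyte maturation (18 of 86 genes, Fisher's exact p = 8.07e-07), and the ErbB signaling pathway had 9 of 85 genes (p = 0.0457, 0.202 after the authors' adjustment). The term on Glycosylphosphatidylinositol(GPI)-anchor biosynthesis held none of the 37, and 0 terms carried mTOR or insulin in their name.

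The rest of the pathway was read from 8 lists of 141 other genes, of which 123 were measured, some of them in a pair of lists. Of these, 18 passed 2-fold upward and 0 downward, against the 8.67% and 5.38% given above, and the median log2 ratio was 0.31. At 100 or more on both arrays 15 of 107 (14.0%) passed 2-fold upward, against 10.0% of all genes at that intensity. After loess 9 of the 123 did so, against 5.31% of all named genes, and 0 passed it downward, against 6.71%. The median after loess was 0.13. Receptors and adaptors upstream of PI3K, such as the insulin receptor and its substrates, had the lowest median, -0.058 over 10 genes, with none past 2-fold. Among other PI3K and lipid kinases (median 0.26 over 12 genes) the only one was Pip4k2a, a kinase of a related lipid, with 233 in control and 476 in TLC-S, 2.04-fold higher, and none passed after loess. Phosphatases of the pathway had a median of 0.31, with 13 of 13 ratios above 0, against 59.3% of all named genes. After loess their median was 0.065, with 9 of 13 above 0, against 50.7%. One was past 2-fold, Mtmr2, which removes the phosphate that class III PI3K adds, with 575 and 1476 (2.57-fold higher).

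AKT partners and substrates had a median of 0.26 over 10 genes, with 2 past 2-fold and 0 after loess. The Rab regulator Tbc1d1, which both AKT and AMPK phosphorylate, gave 136 and 317 (2.32-fold higher), and the cell death factor Bad, which AKT inactivates, gave 404 and 881 (2.18-fold higher). Parts of the mTOR complexes and of amino acid sensing had a median of 0.48 over 26 genes, with 6 past 2-fold. After loess the median was 0.17 and 1 of the 6, Tbc1d7, was still past 2-fold. Tbc1d7, the third subunit of the TSC complex, gave 262 and 778, 2.97-fold higher, and its other target had a log2 ratio of 1.67. Nprl3, a subunit of the GATOR1 complex that restrains mTOR complex 1 when amino acids are low, gave 225 and 535 (2.37-fold higher), and Lamtor5, of the lysosomal anchor of that complex, 231 and 545 (2.36-fold higher), with a log2 ratio of 0.73 at its other target. The other 3, named after their values were seen, were Depdc5, also of GATOR1, at 439 and 991, Sesn3, at 299 and 672, and Ddit4l, at 106 and 214; the products of both Sesn3 and Ddit4l are known to restrain mTOR complex 1.

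Outputs of mTOR complex 1 had a median of 0.39 over 17 genes, and of 0.18 after loess. Lpin1, a regulator of lipid synthesis, gave 64.7 and 320.4, at least 3.20-fold higher, and was the only one past 2-fold. Activators and substrates of AMPK had a median of 0.48 over 20 genes. Over the 17 of them at 100 or more on both arrays it was 0.11, against 0.25 for all genes at that intensity, and -0.059 after loess. By measured ratio 4 (20%) passed 2-fold upward, against 8.67% of all named genes, 3 of them at 100 or more on both arrays. After loess 3 passed, against 5.31% of all named genes. Strada, the pseudokinase that binds and activates LKB1, gave 173 and 561 (3.25-fold higher). Acacb, a carboxylase that AMPK inhibits, gave 48.0 and 112, at least 1.12-fold higher. Tbc1d1, named above, is another.

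FOXO target genes had a median of 0.28 over 22 genes, against 0.15 over all named genes, and after loess 0.21, against 0.0098. Of the 22, 16 had ratios above 0, against 59.3% of all named genes. By measured ratio 5 (22.7%) passed 2-fold upward, against 8.67%, 4 of them at 100 or more on both arrays. After loess 3 passed, against 5.31%. Both FOXO factors were lower, and a link between the factors and these genes was not tested. Txnip, which inhibits thioredoxin and glucose uptake, gave 339 in control and 4360 in TLC-S (12.9-fold higher), and Cited2, a transcriptional regulator, 3863 and 15321 (3.97-fold higher). Trim63, a ubiquitin ligase of muscle, gave 36.5, under the random-sequence probes, and 129, at least 1.29-fold higher. The other 2 were Ccng2, named after its value was seen, at 468 and 1035, and Sesn3. Of the metabolic targets, Pck1 gave 62.1 and 72.2, G6pc1 44.3 and 55.0 and Pdk4 55.1 and 56.4, all under 100 on both arrays.

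**Figure D4:**
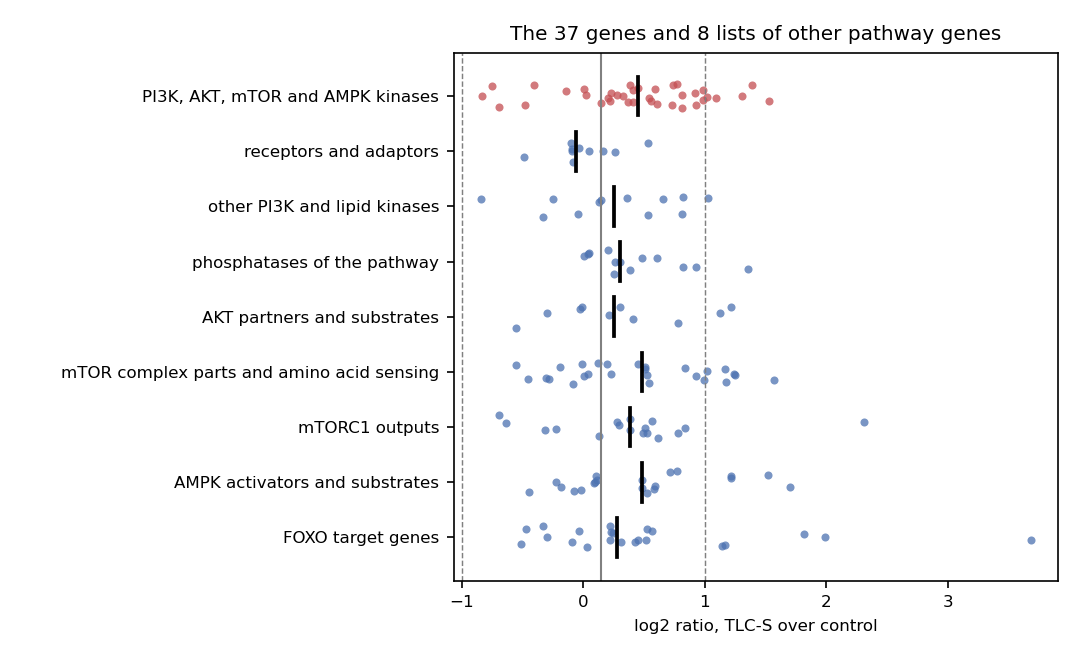
Log2 ratio of TLC-S over control for the 37 genes (top row) and for the measured genes of 8 lists of other pathway genes, 1 point per gene, with the median of each row as a black bar, the median of all named genes (0.15) as a solid line and 2-fold as dashed lines. Points lie to the right of the upper 2-fold line in 8 of the 9 rows, the exception being the receptors and adaptors, and none lies past the lower line.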

How the data were processed

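Each group's Cy3-labelled total RNA was read on 1 one-colour NimbleGen array, per the labels' protocols. Each deposited array file holds a linear intensity for every target, summarised by RMA per the submitters' processing notes, which name no version. The genome build is not given in the sources used here. Per the file headers, the authors' lists of higher and lower targets hold a fold (a linear ratio) and a log2 value, and their pathway list holds a p-value. Nearly all targets were read by 5 probes, and 0 columns of array values were left unmapped.

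Of 26419 targets, 9747 were named by RefSeq accession and 4950 by gene ID through a gene table of GRCr8, and 1644 kept the file's symbol; 10078 stayed unnamed. Ratios were taken as log2 of TLC-S over control, at each gene's target of highest mean log2 intensity. Members, gene lists, pairs and motifs were chosen with earlier results of these data known. Named pathway genes are the up to 3 highest and 3 lowest past 2-fold in each list with 100 or more on at least 1 array. One gene that this rule would name is not reported here. Genes of like signal are those in the same of 10 equal bins of mean log2 intensity. The number of arrays limits the precision. The loess step (span 0.3, 3 robust iterations) was tested on simulated data. Settings tried in turn were the values of the series table, the authors' full list, median centring, loess, an offset of 50, other targets of a gene, signal limits and thresholds of 1.5-fold and 3-fold. The software was statsmodels 0.14.6 (loess), pandas 2.3.3, numpy 2.4.6 and matplotlib 3.10.9 under Python 3.11.15.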

Additional observations from a re-analysis of the deposited data

How the results depend on the processing

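No paired analysis was possible because a single array stood for each group, which also meant that no array could be left out. Against 5 genes at least 2-fold higher and 0 lower, loess gave 3 and 2 (Pik3ca and Foxo1 lower), an offset of 50 gave 3 higher, a limit of 1.5-fold gave 16 and 3, and a limit of 3-fold gave 0 higher. Of all named genes, 5.31% and 6.71% passed after loess, 5.40% upward with the offset, 23.5% and 13.1% at 1.5-fold and 1.95% upward at 3-fold. Loess together with 100 or more on both arrays, added after the data were seen, gave 2 and 2 over 32 genes, against 4.58% and 6.92% of all genes so chosen. The other settings gave 4 or 5 higher and 0 lower. The median log2 ratio of the members kept in each setting ran from 0.13 to 0.45, against -0.00144 to 0.25 for all genes under the same settings. The 0.13 was over the 32 genes of the setting just named, and the lowest median over all 37 was 0.23, under loess alone. Of the single ratios, that of Sgk1 with the offset (1.10) and that of Pik3cg at its dimmer target (0.16) moved by more than 0.42, the SD between targets of a gene on the log2 scale. Ratios of Pdpk1 and Akt2 changed sign under median centring, and those of Pdpk1, Akt2, Tsc2 and Rheb under loess. The series values, and the authors' table to rounding, repeat the values used. In bins 4 to 6 of signal, which held the 5 genes past 2-fold, the central 95% of all genes reached log2 ratios of 1.60 to 1.86, so a 2-fold difference lay within that spread.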

Other observations

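The remaining cell type markers were read mainly for their level. Of 8 T and NK lymphocyte genes, 1 reached 100 on both arrays, as did 2 of 7 myeloid, 3 of 9 epithelial, 2 of 8 endocrine and 0 of 7 stellate cell and fibroblast genes. Ptprc, which encodes the leukocyte antigen CD45, gave 1175 in control and 993 in TLC-S. Of the 9 epithelial ratios 7 were below 0. Their median, -0.58, was that of Krt19, which gave 53.7 and 36.0, near the random-sequence probes, so it says little of a fall. The cadherin Cdh1 gave 5018 and 6755, whereas the tight junction gene Cldn4 was 2.34-fold and the transcription factor Grhl2 2.29-fold lower in TLC-S. The B cell receptor subunit Cd79b gave 1263 and 1079.5, and Blnk, the adaptor that links this receptor to its downstream kinases, 3702 and 3838. Pik3ap1, the B cell adaptor for PI3K known as BCAP, gave 937 and 968, a log2 ratio of 0.047.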
